A study of Mus musculus with 6 samples.

Results

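Histone genes were examined in RNA-seq of NOR-10 cells, a mouse fibroblast line from skeletal muscle, after exposure to D-galactose (D-gal), a sugar given to cells to bring on senescence. Members were taken by symbol: those beginning with Hist1h to Hist4h, and those beginning with H1f, H2af, H2ac, H2bc, H3f, H3c or H4c. The table of 34745 genes holds 92 of them, 71 with a Hist symbol and 21 without. The Hist symbols are those of clustered genes, and all 71 are called clustered here by symbol. The pseudogene Hist1h2al lies at chr13:51202688-51203065, away from the other Hist genes on that chromosome, and Hist4h4 is the single one on chromosome 6. Of the 71, 65 are protein coding in the GENCODE M21 annotation, 4 are not, and 2 are not in it. The other 21 comprise 15 coding genes for variant histones, 5 processed pseudogenes and 1 antisense gene. The 3 control libraries came from cells given PBS and the 3 D-gal libraries from cells given D-gal, at 20 mg/mL for 3 days by the methods of the study. All 6 libraries are of this single cell line. Nothing in the labels says that the replicates were separate cultures, so p-values measure the spread between these libraries, which may be technical.

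Histones package DNA into nucleosomes, with H2A, H2B, H3 and H4 in the core and H1 on the linker DNA. Clustered histone genes are expressed mainly in S phase, lack introns, and give mRNAs that end after a conserved stem-loop instead of a poly(A) tail. Stem-loop binding protein holds that hairpin and guides processing, export, translation and decay. Variant histone genes lie outside the clusters, are expressed throughout the cell cycle, and give ordinary polyadenylated mRNAs for proteins deposited with or without replication. Some clustered genes and H2afx can also give polyadenylated mRNAs that run past the hairpin.

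The hairpin is shown because it is the feature by which clustered genes are known, and because few other genes have it. A stem of 6 base pairs around a loop of 4 bases was searched after the stop codon of every coding transcript in GENCODE M21 (GRCm38), as GGNNCTTTNNAGNNCC with pairing of the stem required. It was present in 49 of 21699 coding genes, or 0.226%. Of these 49 genes, 43 are members: 42 clustered genes and, outside the clusters, H2afx. It began 21 to 58 bases after the stop codon. The most frequent form, as in Hist1h1c, Hist3h2a and Hist2h3c2, occurred in 24 members. Of the 23 coding clustered genes without a match, 17 have at most 50 annotated bases after the stop codon. The sequences below are given 5′ to 3′ on the strand of the gene, with the hairpin in capitals.
Hist1h1c, chr13:23739507-23739532, plus strand: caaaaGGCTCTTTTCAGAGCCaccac
Hist3h2a, chr11:58955167-58955192, plus strand: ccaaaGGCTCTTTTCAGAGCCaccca
Hist2h3c2, chr3:96238480-96238505, minus strand: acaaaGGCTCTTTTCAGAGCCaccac
Hist1h4i, chr13:22040961-22040986, minus strand: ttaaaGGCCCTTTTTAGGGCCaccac
Hist1h3c, chr13:23745042-23745067, minus strand: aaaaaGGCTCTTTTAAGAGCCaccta
H2afx, chr9:44335235-44335260, plus strand: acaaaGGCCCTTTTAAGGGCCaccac

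The promoters of the members were searched for motifs known from histone genes, as a description. RefSeq windows from 250 bases before to 50 bases after the start (GRCm38.p6) were found for 60 clustered genes, in 61 windows, and for 15 of the other members. On both strands, CCAAT, the box bound by NF-Y, occurred in 85.2% of clustered windows, 60% of the other members' windows and 37.4% of all 32851 windows. TATAAA occurred in 57.4%, 6.67% and 13.6%, respectively. Among clustered genes, CCAAT was in every H1, H2A, H2B and H3 window and in 25% of H4 windows; outside the clusters it was in 25% of H1, 75% of H2A and 66.7% of H3 windows. The octamer ATTTGCAT, the site known for Oct-1 in H2B promoters, was in 40% of clustered H2B windows, 38.9% of clustered H2A windows, 0% of the other H2A windows and 1.74% of all windows. H2A and H2B genes often lie head to head, so some of these windows cover the same bases. AAACACA, known from H1 promoters, was in 83.3% of clustered H1 windows, 0% of the other H1 windows and 7.18% of all windows. Below are the 120 bases before the start of 2 clustered genes whose counts rose, with these motifs in capitals on either strand. The first holds AAACACA and CCAAT, and the second the octamer and a pair of CCAAT boxes. The same 120 bases of Hist2h3c2, which also rose, held none of these motifs, though its whole window has CCAAT. Those of H1f0, which fell, held none either. No window was found for Hist1h2bc, which rose as well.
Hist1h1c, chr13:23738687-23738806, plus strand: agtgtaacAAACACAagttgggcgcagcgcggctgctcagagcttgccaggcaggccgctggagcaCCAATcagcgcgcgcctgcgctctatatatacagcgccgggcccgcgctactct
Hist3h2a, chr11:58954565-58954684, plus strand: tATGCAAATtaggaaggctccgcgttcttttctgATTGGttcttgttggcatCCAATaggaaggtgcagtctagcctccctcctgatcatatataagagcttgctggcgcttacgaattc

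The libraries held 13759108 to 20830349 counts, fewer in each D-gal library than in any control. Mitochondrial genes took 4.26% to 4.44% of counts in controls and 4.87% to 4.98% with D-gal. Of 9 fibroblast markers 8 were tested, 6 of them fell and 1 rose, and the list summed to 7075 to 7241 CPM (counts per 1000000 counts of the library total) in controls and 4755 to 4876 with D-gal. Lum had 1 count in all. The lists for muscle, endothelial, leukocyte, adipocyte and epithelial cells each summed to at most 9.40 CPM in any library, with Myod1, Pax7, Adipoq and Epcam at 0 throughout. Of the 7 genes of these lists that were tested, 2 fell, the cadherin gene Cdh1 (log2 fold change -1.79 ± 0.18, adjusted p = 0.000197) and the desmin gene Des (log2 fold change -0.78 ± 0.17, adjusted p = 0.00898), and the epithelial list summed to between 6.82 and 8.36 CPM in controls and between 1.78 and 2.54 with D-gal. Of 22 RNAs known to lack a poly(A) tail, 6 were in the table, and together they had at most 13 counts in a library (0.269 to 0.668 CPM). The part of these shifts in the results below was not tested. In bulk RNA, fewer cells of a type and less RNA per cell cannot be told apart.

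With D-gal, most of the abundant variant histone genes were lower, and the clustered genes that passed the test were higher. Of the 13407 genes that passed the filter on low counts, 22 were members, 9 clustered and 13 not. Outside the clusters 8 fell and 1 rose, and among clustered genes 4 rose and 0 fell, at an adjusted p under 0.05 in edgeR's quasi-likelihood test. DESeq2 also called 0 clustered genes lower. Of the 9 clustered genes tested in edgeR, Hist2h2be alone was lower at an unadjusted p under 0.05. Of the 10 coding genes tested outside the clusters, 6 fell and 1 rose. The other falls there were of the pseudogenes H3f3a-ps2 and H3f3c. Log2 fold changes below are D-gal minus control ± SE, with 3 libraries per group, and means of levels are given ± SD. In all, 34.8% of genes tested passed, 16.9% higher and 17.8% lower with D-gal. Hist2h3c2 was the single member past a log2 fold change of 1 in size as well, against 4.21% of genes tested. The groups did not overlap in 15 of the 22 members, against 49.1% of all genes tested. The median log2 fold change was 0.53 for the 9 clustered genes, -0.35 for the 13 others and 0.00 for all genes tested. The other 70 members, 62 of them clustered, had too few counts to be tested, so these counts describe the abundant members alone. An exact permutation test of 1 gene, two-sided over 3 libraries against 3, cannot go below p = 0.1, and gave that value wherever the groups did not overlap.

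The levels lay far apart. Summed over the 71 clustered genes, the CPM values were 44.4, 44.9 and 43.7 in controls and 49.4, 55.3 and 59.1 with D-gal. Over the 21 others they were 1195, 1112 and 1105 in controls and 946, 924 and 890.4 with D-gal. Thus the clustered sum was higher in every D-gal library and the other sum lower in every D-gal library, with no overlap in either. The clustered sum includes the 4 clustered genes called higher, and it was not made without all 4. It therefore does not describe the remaining clustered genes. Without Hist1h1c, which held 31.1% of the clustered counts, the clustered sum was 32.3, 31.6 and 31.6 in controls and 30.2, 35.2 and 43.0 with D-gal, so that the groups overlapped and D-gal replicate 1 was lowest of all. The mean went from 44.3 ± 0.634 to 54.6 ± 4.87 for all 71 clustered genes (SD, n = 3), a ratio of 1.23, and from 1137 ± 49.98 to 920.0 ± 28.0 for the others, a ratio of 0.809. Of the 71 clustered genes, 49 had under 10 counts in every library, 2 (Hist1h2ba and Hist1h2bm) had none, and 8 had at least 100 counts over all 6 libraries.

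Among linker histones, the replacement gene H1f0 fell and the clustered gene Hist1h1c rose. H1f0, the replacement linker histone H1.0 that accumulates in cells that stop dividing (ENSMUSG00000096210, chr15:79028212-79030498, plus strand), had normalized counts of 3229, 3155 and 3198 in controls and 2158, 2009 and 1824 with D-gal. Every D-gal library was below every control, and H1f0 fell (log2 fold change -0.68 ± 0.06, adjusted p = 0.000106). Hist1h1c, which encodes the somatic linker histone H1.2 (ENSMUSG00000036181, chr13:23738808-23740367, plus strand), had 205, 227 and 206 in controls and 321, 333 and 268 with D-gal. All D-gal libraries were higher, and Hist1h1c rose (log2 fold change 0.53 ± 0.11, adjusted p = 0.00618). H1fx, a variant linker histone, had 267, 273 and 261 in controls against 187, 283 and 225 with D-gal, with overlapping groups (log2 fold change -0.20 ± 0.14, adjusted p = 0.315). Without D-gal replicate 2 it was called lower, at adjusted p = 0.0474 in edgeR. Gm5577 lies on its other strand, with 11 to 57 counts in a library. Per length, as CPM per kilobase of merged GENCODE M21 exons, H1f0 stood at 91.4 ± 1.15 in controls (SD, n = 3), H1fx at 12.9 ± 0.308 and Hist1h1c at 8.01 ± 0.468. With D-gal these were 58.5 ± 4.76, 11.5 ± 2.42 and 11.9 ± 1.35. Clustered genes thereby made up 7.63, 8.63 and 8.07% of this level summed over the 10 H1 genes in controls and 15.3, 16.5 and 14.9% with D-gal. By the deposited FPKM the shares were 9.09, 10.1 and 9.49% in controls and 17.5, 17.9 and 17.2% with D-gal. These are shares of what the libraries hold. How far mRNAs without a poly(A) tail were captured was not tested. The 5 other clustered H1 genes had few counts, 37 at most over all libraries.

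Among H2A variants, H2afv and both macroH2A genes fell and H2afx rose. H2afv encodes H2A.Z.2, a variant at promoters (ENSMUSG00000041126, chr11:6427229-6444443, minus strand), and had 931, 929 and 883 normalized counts in controls against 597, 638 and 647 with D-gal. The groups were apart and H2afv fell (log2 fold change -0.54 ± 0.06, adjusted p = 0.00023). H2afz, the gene of H2A.Z.1, had 201, 162 and 166 in controls against 147, 155 and 73.5 with D-gal (log2 fold change -0.49 ± 0.25, adjusted p = 0.166). Its D-gal replicate 3 lay far below the other D-gal libraries, and 42.3% of its sequence words of 31 bases also occur in other genes.

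H2afy, the gene of macroH2A1, a large variant linked to silent chromatin, had 1342, 1279 and 1264 in controls and 1031, 982 and 1036 with D-gal and fell (log2 fold change -0.35 ± 0.05, adjusted p = 0.000912). H2afy2, the gene of macroH2A2, had 1774, 1593 and 1562 in controls and 1324, 1337 and 1199 with D-gal and fell (log2 fold change -0.35 ± 0.06, adjusted p = 0.00406). The groups of both genes were apart. H2afy2 overlaps Aifm2 on the other strand, and whether counting used strand is not given in the sources used here.

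H2afx encodes H2A.X, which is phosphorylated beside DNA breaks (ENSMUSG00000049932, chr9:44334694-44336077, plus strand). It had 884, 905 and 886 normalized counts in controls and 1017, 1140.0 and 1078 with D-gal, every D-gal library above every control, and it rose (log2 fold change 0.27 ± 0.05, adjusted p = 0.00601). H2afx was both the single riser outside the clusters and the single member there with a hairpin, followed by 822 more annotated bases. Any link between its hairpin and its rise was not tested. H2afj, the gene of H2A.J, a variant known to accumulate in senescent fibroblasts, had 1677, 1463 and 1456 in controls against 1490.3, 1517 and 1634 with D-gal. Its groups overlapped (log2 fold change 0.01 ± 0.07, adjusted p = 0.897). Per kilobase of merged exons, the CPM of H2A variants in controls ran from H2afj at 49.2 ± 4.13 and H2afy2 at 44.4 ± 3.20 through H2afx at 37.9 ± 0.506 and H2afv at 32.9 ± 1.05 to H2afy at 11.2 ± 0.381 and H2afz at 5.84 ± 0.727. H2afj and H2afy2 overlapped between libraries. The level of H2afz may depend on how reads that match several genes were assigned, which is not given. The order depends on the length used: the deposited FPKM rests on 2408 bases for H2afj against 1831 of merged exons, and puts it at 37.4 ± 3.14 FPKM, below H2afy2 at 44.4 ± 3.20.

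Both H3.3 genes were lower with D-gal. H3f3a and H3f3b encode the same protein, the H3 variant deposited outside replication. H3f3b (ENSMUSG00000016559, chr11:116021912-116027962, minus strand), with the most counts of any member, had 7506, 6768 and 6876 in controls and 5869, 5551 and 5178 with D-gal. Its groups were apart and it fell (log2 fold change -0.35 ± 0.06, adjusted p = 0.00218). H3f3a had 1768, 1587 and 1463 in controls and 1422, 1191 and 1324 with D-gal, also apart, and fell (log2 fold change -0.29 ± 0.08, adjusted p = 0.0301). That call was lost with any of 4 libraries left out (controls 1 and 2, D-gal 2 and 3), with an adjusted p between 0.0669 and 0.088. With all libraries kept it was also lost in limma on log2(FPKM + 1). The pseudogenes H3f3a-ps2 and H3f3c fell as well (log2 fold change -0.61 ± 0.10, adjusted p = 0.00248, and log2 fold change -0.55 ± 0.11, adjusted p = 0.00543). They share 87.9% and 91.3% of their words with other genes, above all with H3f3a. Summed over H3f3a, both H3f3a pseudogenes and H3f3c, the CPM values were 144, 139 and 133 in controls and 116, 100.5 and 111 with D-gal, again without overlap. H3f3aos, antisense to H3f3a, had 9, 16 and 17 counts in controls and 5, 12 and 16 with D-gal (log2 fold change 0.00 ± 0.47, adjusted p = 1).

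The remaining members outside the clusters were close to or at 0. H1foo and H1fnt, linker histones of oocytes and testis, the H2afb1, H2afb2 and H2afb3 genes, and the pseudogene H2af-ps had no count in any library, which allows up to 0.144 to 0.218 CPM by the limit of 3 counts (counting error only). The pseudogenes H2afy3 and H3f3a-ps1 had 5 and 51 counts over all libraries.

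**Figure D1:**
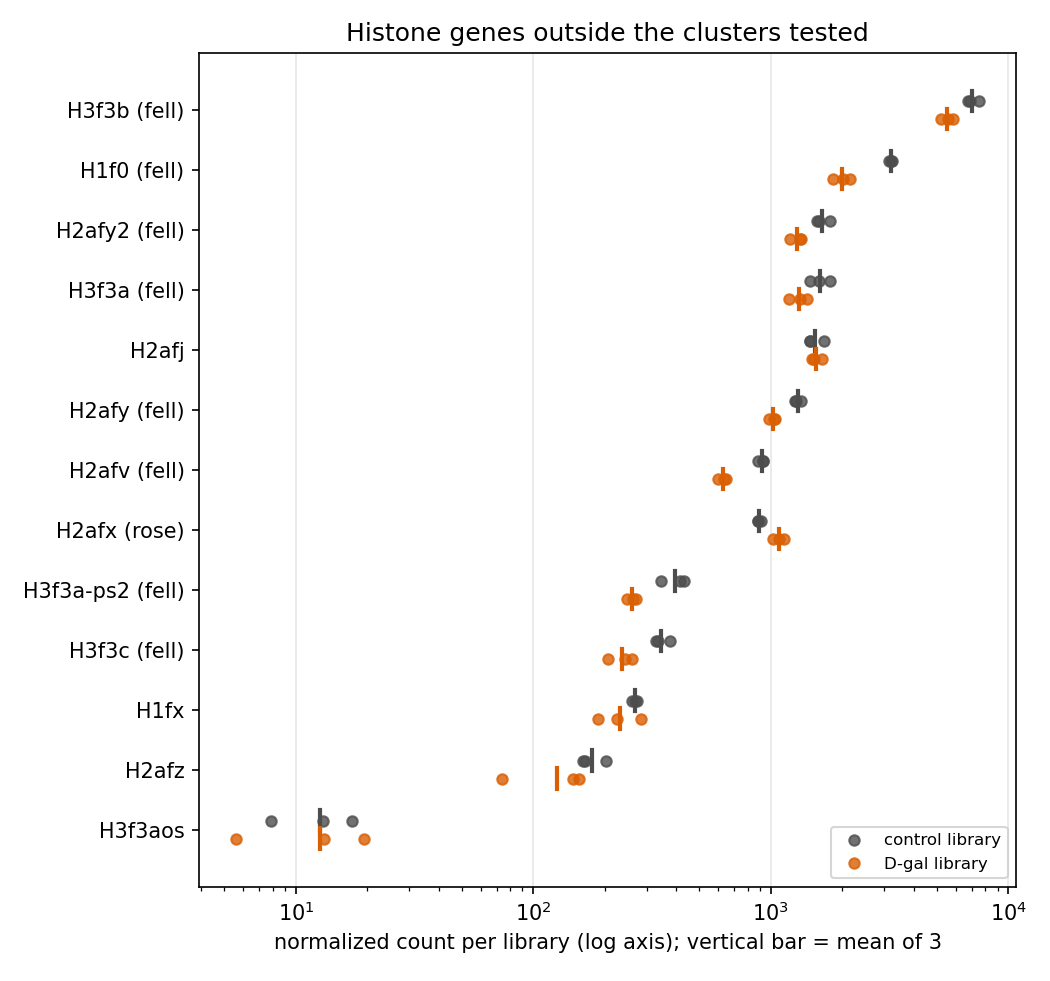
Normalized counts of the 13 members outside the clusters that were tested, on a log axis, with 1 point per library and a vertical bar at the mean of 3. The D-gal points lie left of the control points for the 8 genes that fell and right of them for H2afx.

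The 4 clustered genes that rose belong to 4 families. Besides Hist1h1c, Hist1h2bc of the H2B family (ENSMUSG00000018102, chr13:23684199-23692488, plus strand) had 73.2, 73.4 and 86.8 normalized counts in controls and 101, 134 and 134 with D-gal and rose (log2 fold change 0.66 ± 0.16, adjusted p = 0.0129). Its annotated transcript has 2 exons, 742 bases after the stop codon and no hairpin. Hist2h3c2, an H3 gene (ENSMUSG00000081058, chr3:96238108-96239127, minus strand), had 18.3, 18.0 and 12.1 in controls and 31.4, 30.6 and 41.0 with D-gal, and rose (log2 fold change 1.07 ± 0.26, adjusted p = 0.0151). Every D-gal library of both genes was above every control, though Hist2h3c2 rested on 12 to 34 counts per library and shares 64.2% of its words with its duplicate Hist2h3c1 and others.

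Hist3h2a, the H2A gene of the small cluster on chromosome 11 (ENSMUSG00000078851, chr11:58954685-58956830, plus strand), had 117, 99.5 and 101 in controls and 121, 146 and 166 with D-gal and rose (log2 fold change 0.45 ± 0.15, adjusted p = 0.0456). It overlaps Trim17 on the same strand, which had at most 5 counts in a library. Hist3h2a and Hist2h3c2 were near the threshold. DESeq2 gave adjusted p = 0.102 and 0.0565, and without D-gal replicate 3 the edgeR values were 0.141 and 0.0578, which leaves Hist1h1c and Hist1h2bc as the clustered genes called higher. The call of Hist3h2a was lost with any library left out except D-gal replicate 1, at adjusted p from 0.0529 to 0.141.

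The other 5 clustered genes tested did not pass. Hist2h2be, an H2B gene with 2192 annotated bases after the stop codon, had 68.0, 72.6 and 81.8 in controls and 48.3, 30.6 and 60.2 with D-gal (log2 fold change -0.68 ± 0.24, adjusted p = 0.0567). Its groups were apart, in the direction opposite to Hist1h2bc. Without D-gal replicate 3 its adjusted p was 0.0287 and its log2 fold change -0.91. Hist1h2be, another H2B gene, had 13.1, 22.0 and 10.1 in controls against 32.5, 27.3 and 14.5 with D-gal (log2 fold change 0.70 ± 0.40, adjusted p = 0.215), and it overlaps Hist1h1e on the same strand. Hist2h2aa2, an H2A gene, had 17.4, 23.7 and 16.2 in controls against 21.3, 38.2 and 26.5 with D-gal (log2 fold change 0.58 ± 0.30, adjusted p = 0.175). Other genes hold 100% of its words, among them Gm20632, which overlaps it on the other strand. Hist1h2af, also H2A, had 10.5, 17.1 and 22.2 in controls against 5.61, 6.55 and 16.9 with D-gal (log2 fold change -0.78 ± 0.49, adjusted p = 0.256), and shares 94.3% of its words. Hist1h4i, the single H4 gene tested, had 31.4, 36.7 and 24.2 in controls against 25.8, 34.9 and 42.2 with D-gal (log2 fold change 0.14 ± 0.26, adjusted p = 0.712). The groups of these last 4 genes overlapped.

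**Figure D2:**
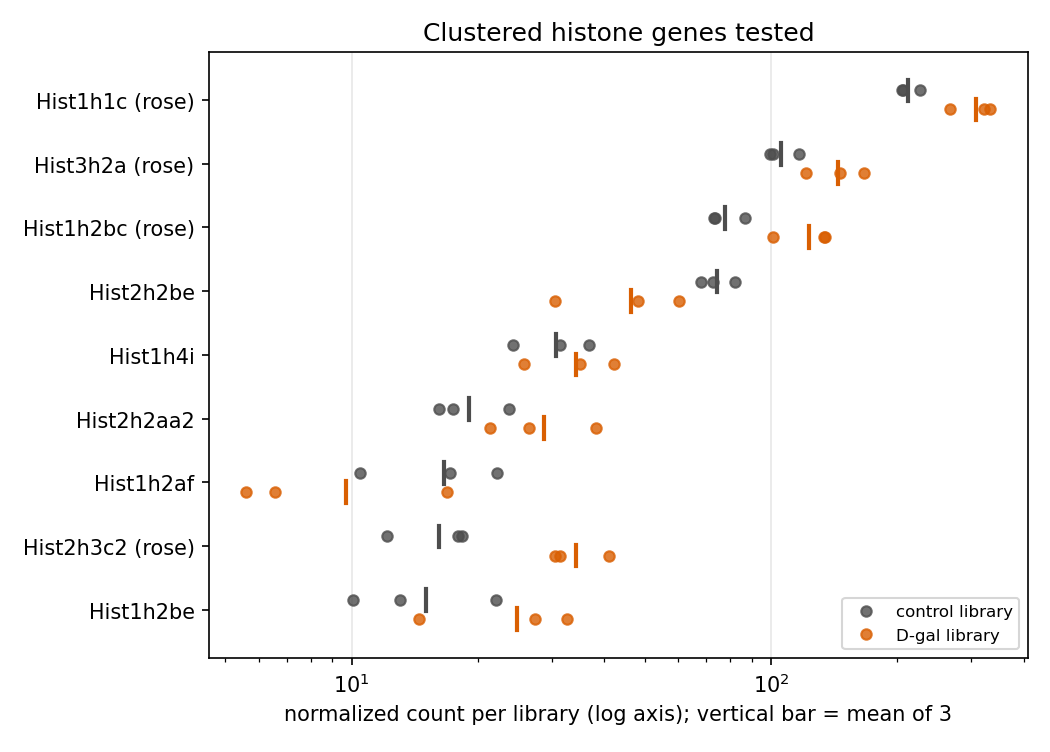
Normalized counts of the 9 clustered genes tested, on a log axis, with 1 point per library and a vertical bar at the mean of 3. Hist1h1c, Hist3h2a, Hist1h2bc and Hist2h3c2 have every D-gal point to the right of the controls, and Hist2h2be has every D-gal point to the left.

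Among the 9 clustered genes tested, Hist1h1c had the highest level per kilobase of merged exons, 8.01 ± 0.468 CPM in controls (SD, n = 3), followed by Hist1h2bc at 3.96 ± 0.388 and Hist3h2a at 2.90 ± 0.268. Hist1h4i at 2.49 ± 0.510, Hist1h2af at 2.45 ± 0.864 and Hist2h2aa2 at 2.13 ± 0.449 did not differ beyond their spread. Hist1h2be was lowest at 0.199 ± 0.0823. Outside the clusters H3f3b had the highest, 139 ± 8.14.

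Clustered genes were also grouped by how far their annotated transcripts run. After the values were seen, the 65 coding genes were split at 300 bases after the stop codon, between 230 bases for the longest short gene and 376 for the shortest extended one. This gave 21 extended genes (median 1209 bases) and 44 short genes (median 73.5 bases), and the split is a description with no test. Of the 9 genes tested 7 are extended, among them all 4 that rose, and the 2 short ones are Hist1h2af and Hist2h2aa2. Summed over extended genes, the CPM values were 34.7, 35.4 and 34.7 in controls and 44.0, 46.7 and 47.8 with D-gal, higher in every D-gal library. The mean went from 34.9 ± 0.395 to 46.1 ± 1.95, a ratio of 1.32. This sum includes the 4 genes that rose and was not made without all 4. A difference from short genes apart from those 4 was therefore not shown. The extended H4 genes, which include none of the 4, stood at 2.87 ± 0.387 CPM in controls and 2.71 ± 0.303 with D-gal. Over short genes the summed CPM values were 9.30, 9.07 and 8.53 in controls and 4.98, 7.92 and 11.1 with D-gal. The short groups overlapped through D-gal replicate 3, the highest of all libraries, of whose 153 counts 60 are of Hist2h2aa1, a gene without counts elsewhere. The ratio was 0.893, and 0.731 without Hist2h2aa1.

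By family, the short H3 genes, 7 in number, summed to 2.41, 1.97 and 1.30 CPM in controls and 0.539, 0.792 and 0.654 with D-gal, without overlap. These rest on few counts, 47, 41 and 22 in controls and 8, 12 and 9 with D-gal. The 11 short H2B genes summed to 1.80, 1.34 and 1.84 in controls and 0.943, 1.25 and 0.727 with D-gal, also without overlap. Their counts were 35, 28 and 31 against 14, 19 and 10. Of all single genes tested, 49.1% had groups that did not overlap. The 7 short H4 genes (1.75, 1.25 and 1.19 against 0.943, 1.19 and 1.31) and the 3 short H1 genes (0.462, 0.768 and 0.770 against 0.404, 1.12 and 0.581) overlapped. The 16 short H2A genes, the family with the most counts, summed to 2.88, 3.74 and 3.44 in controls and 2.16, 3.56 and 7.85 with D-gal, a ratio of 1.35. Without Hist2h2aa1 the value of D-gal replicate 3 was 3.49 and the ratio 0.915, with overlap either way. Of the 26 short genes with at least 10 counts in all, 17 had a lower CPM over the pooled D-gal libraries than over the pooled controls, as did 8 of 19 extended genes. The same share over all genes was not computed. Hist1h3c, with the most counts among short H3 genes, had 20, 12 and 8 counts in controls and 4, 2 and 1 with D-gal. Most of these genes share much of their sequence: the median share of words found in other genes, overlapping ones included, was 70.9% for short and 29.4% for extended genes. How reads that match several genes were assigned is not given in the sources used here.

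**Figure D3:**
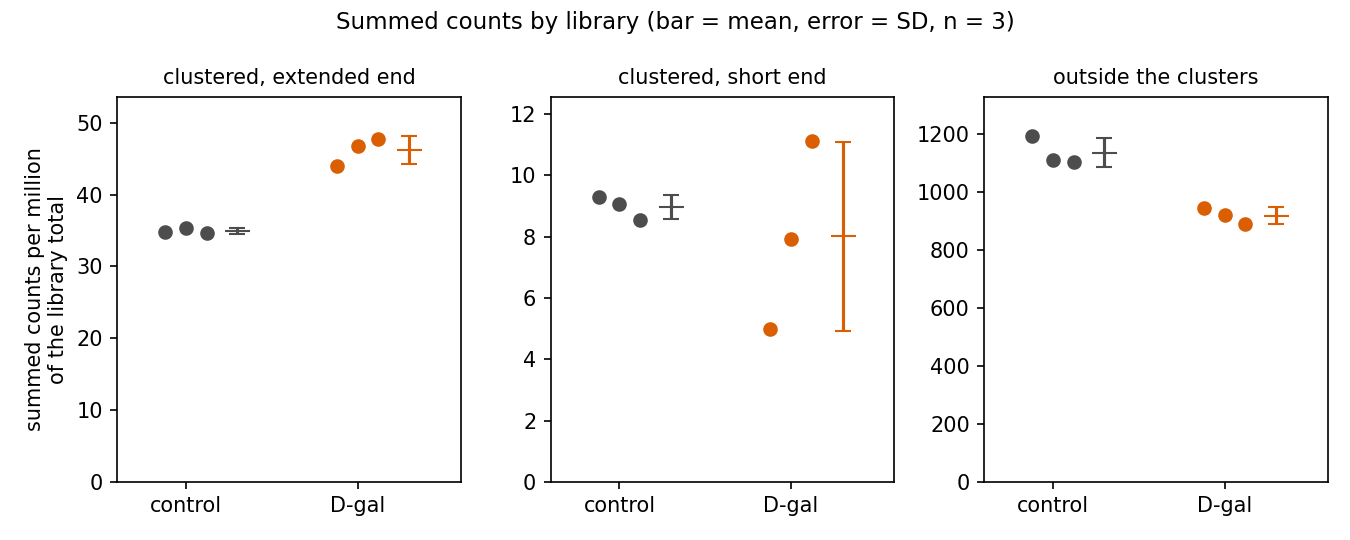
Summed CPM for extended clustered genes, short clustered genes and members outside the clusters, with 1 point per library and the mean ± SD (n = 3). D-gal points lie above the controls for extended genes, on both sides for short genes, and below for members outside the clusters.

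**Figure D4:**
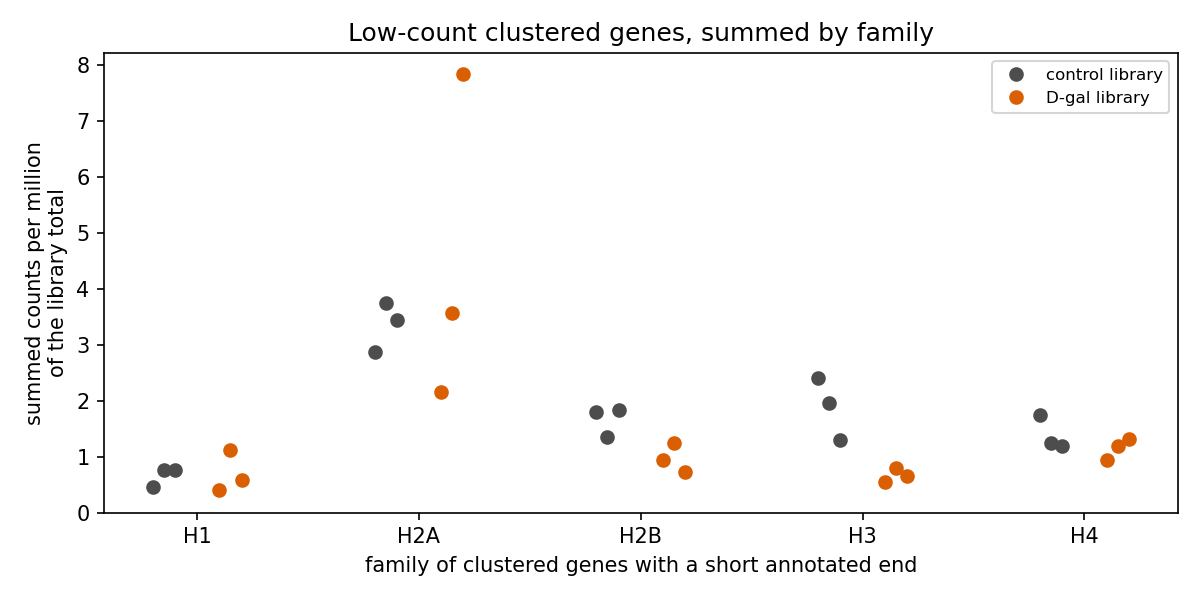
Summed CPM for short clustered genes of each family, with 1 point per library. H2B and H3 have every D-gal point below the controls, and the high D-gal point of H2A is replicate 3.

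Of 25 genes for transcription and processing of clustered histone mRNA, all tested, 3 fell, 0 rose and the median log2 fold change was -0.05. Thus 12% of the list passed, less than the 34.8% of all genes tested, of which 17.8% were lower. The 3 falls are given as single genes and not as a result about the list. Slbp, the gene of the stem-loop binding protein, had 1152, 1042 and 1133 normalized counts in controls and 1010.0, 867 and 896 with D-gal (log2 fold change -0.26 ± 0.07, adjusted p = 0.0228). Lsm11, a subunit of the U7 particle that cuts histone pre-mRNA, had a log2 fold change of -0.31 ± 0.09, adjusted p = 0.0268, and Ccne2, the gene of cyclin E2, of -0.35 ± 0.11, adjusted p = 0.0343. These 3 calls were close to the threshold: all were lost without control replicate 1 or without control replicate 3, and 2 without D-gal replicate 3. Npat, the coactivator of clustered histone genes, had a log2 fold change of -0.08 ± 0.04, adjusted p = 0.181, and Casp8ap2, the gene of its partner FLASH, of 0.14 ± 0.12, adjusted p = 0.42. Neither passed.

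Of 40 genes for histone chaperones and deposition, all tested, 23 fell, 2 rose and 15 did not pass, with a median log2 fold change of -0.19. Thus 62.5% of the list passed, against 34.8% of all genes tested (16.9% higher and 17.8% lower). Cenpa, the centromeric H3 variant whose symbol lies outside the rule, had 1518, 1433 and 1409.8 normalized counts in controls and 744, 703 and 776 with D-gal and fell (log2 fold change -0.97 ± 0.06, adjusted p = 1.51e-05). Hjurp, its chaperone, had 4769, 4694 and 4881 in controls and 3188, 3121 and 3165 with D-gal and fell (log2 fold change -0.60 ± 0.03, adjusted p = 1.11e-05). All D-gal libraries of both genes were below the controls. The CAF-1 subunits, which deposit H3 and H4 behind the replication fork, fell: Chaf1b by 0.69 ± 0.07, adjusted p = 0.000188 and Chaf1a by 0.35 ± 0.05, adjusted p = 0.00129 on the log2 scale. Asf1b, the H3-H4 chaperone of dividing cells, had a log2 fold change of -0.51 ± 0.06, adjusted p = 0.000356, and Nasp, which holds soluble H3-H4, of -0.49 ± 0.05, adjusted p = 0.000192. In the HIRA complex, which deposits H3.3, Ubn1 fell (-0.44 ± 0.04, adjusted p = 0.000102), while Hira itself did not pass (-0.08 ± 0.05, adjusted p = 0.295). The 2 that rose were Ipo4, a histone importin, and Dnajc9, an H3-H4 co-chaperone, by 0.12 and 0.11, and with any library left out at most 1 of them was still called. DNA replication genes, which are expressed in the same phase as clustered histone genes, fell in 29 of 35, with 0 higher and a median of -0.39. That is 82.9% of the list, against 17.8% of all genes tested that were lower.

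**Figure D5:**
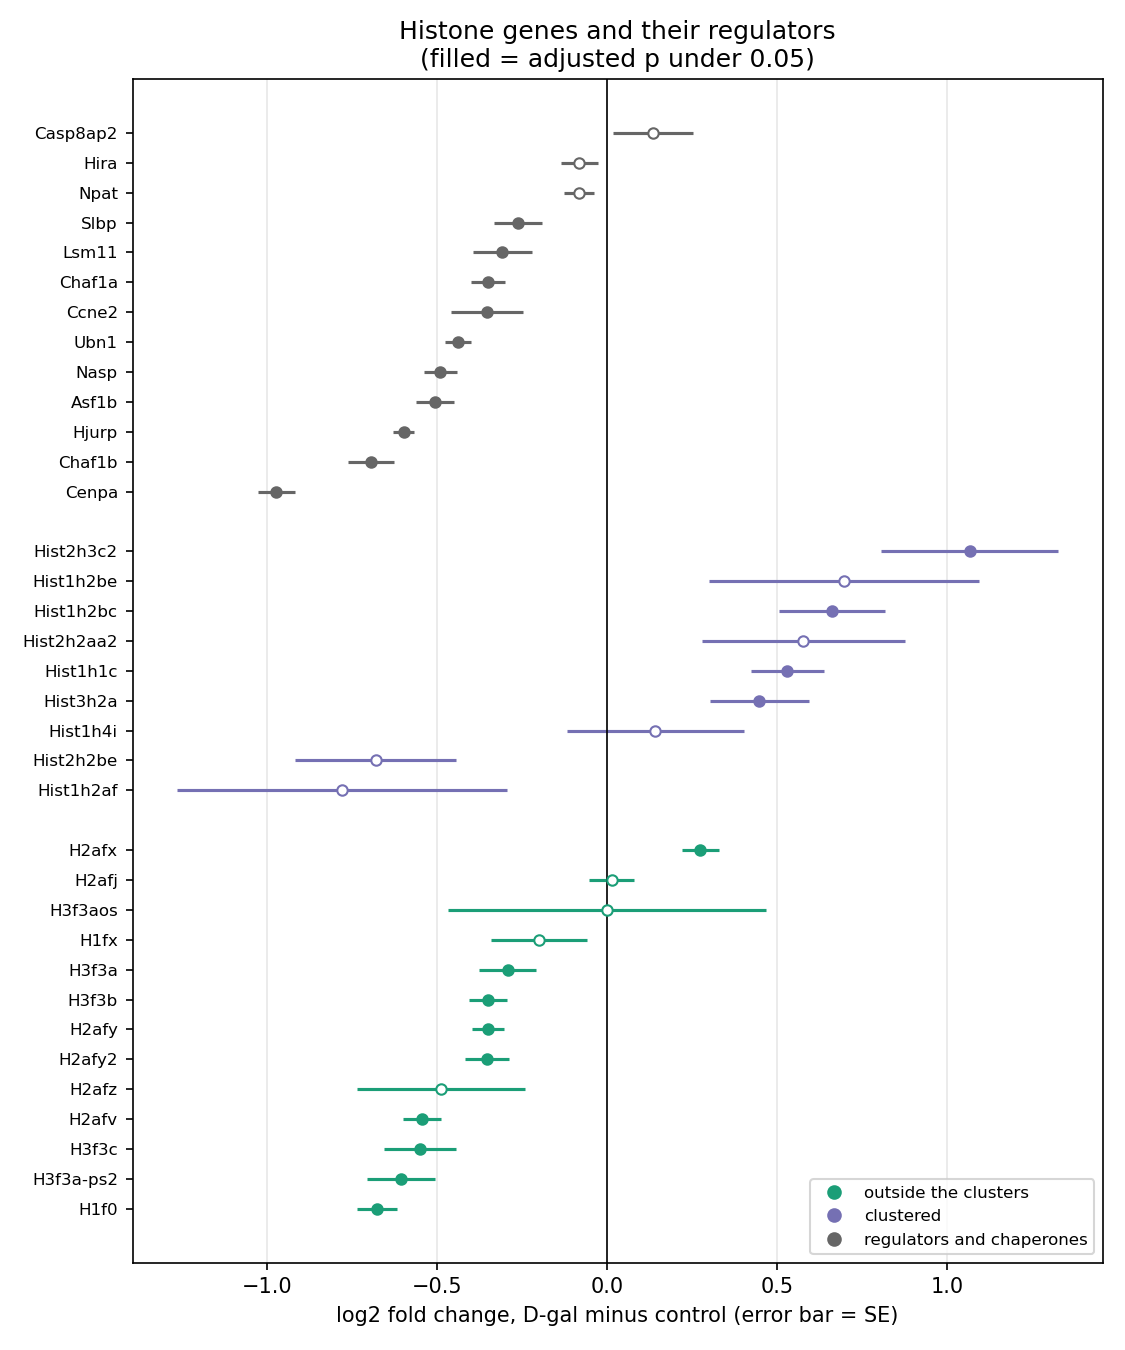
Log2 fold changes (D-gal minus control, with SE) of the 22 members tested and of the named regulators and chaperones. Filled points passed an adjusted p of 0.05. Those outside the clusters and the chaperones lie mostly left of 0, and the 4 filled clustered genes lie to the right.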

How the data were processed

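RNA-seq covered 3 control and 3 D-gal libraries of NOR-10 cells, grouped by the labels. The deposited counts are reads per gene, which the authors left without normalization. The same deposited table holds FPKM, which the authors computed from counts, gene length and library total, and it was used for 1 alternative. The length behind it was over 2% above the merged GENCODE M21 exons in 68% of 13136 genes with at least 20 counts in a library, and over 2% below in 18.8%, so levels between genes were computed from counts per kilobase of merged exons, a choice made after the data were seen. According to the methods the authors trimmed reads (FastQC, Trimmomatic), and the submitters' processing notes name HISAT2 2.0.4. The counting tool, annotation and strand use are not given in the sources used here. The methods name a small RNA library kit and the labels a general RNA-seq kit. Dose and duration come from the methods.

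Counts were fitted with edgeR 4.0.16 (R 4.3.3; filterByExpr, TMM factors 0.9855 to 1.015, quasi-likelihood test, Benjamini-Hochberg adjustment over 13407 genes). Normalized counts are counts scaled to the mean TMM library size. "Rose" and "fell" mean an adjusted p under 0.05. SEs were derived from the log2 fold change and its F statistic. Named were every member tested, 10 regulators and the 3 smallest p of 2 regulator lists. Members and lists were chosen with earlier results of these data known. Shared sequence is the percent of words of 31 bases also found in other GENCODE M21 genes on either strand, genes that overlap the same bases included. Alternatives were DESeq2 1.42.0, limma 3.58.1 on log2(FPKM + 1), RLE factors, other filters and thresholds, thinning, the replicate block, each library left out, and for sums other scales and members. The functions were tested on simulated data. No protein sequences were used here.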

Additional observations from a re-analysis of the deposited data

How the results depend on the processing

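Every fall outside the clusters kept its direction in every alternative run, as did the 4 rises among clustered genes and that of H2afx. Log2 fold changes that did not pass changed sign under some alternatives for Casp8ap2 (-0.0015 to 0.24), H2afj (-0.028 to 0.08), H3f3aos (-0.41 to 0.35) and Hist1h4i (-0.028 to 0.31), none of them called with the opposite sign. Of 13407 genes, 564 passed both thresholds, 4661 the adjusted p alone, and 120 with limma on log2(FPKM + 1). With a log2 fold change of at least 1 asked of members as well, 1 clustered gene was higher, and 0 members outside the clusters were higher or lower. Clustered genes called higher numbered 4, but 2 with DESeq2, 2 thinned to the smallest library (seed 7), 1 at an adjusted p under 0.01, and 2 to 4 with 1 replicate left out, the lowest without D-gal replicate 3. Clustered genes called lower numbered 0, but 2 with no low-count filter (Hist2h2be, and Hist1h3c with a log2 fold change of -2.12 and adjusted p = 0.0357) and 0 to 1 with 1 replicate left out. Genes of histone mRNA processing called lower numbered 3, but 0 with limma, at an adjusted p under 0.01 or with the fold change limit, and 0 to 3 with 1 replicate left out. Of the chaperones, 2 were higher, but 0 with DESeq2, no low-count filter, the replicate block, an adjusted p under 0.01 or the fold change limit, 1 when thinned and 0 to 1 with 1 replicate left out, and 23 were lower, but 0 with the fold change limit. The cause of these changes was not tested where the alternative's own construction (a stricter threshold, fewer libraries) does not give it.

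Added after the data were seen, the ratio of extended clustered sums was 1.32, and 1.23 without Hist1h1c. With 1 replicate left out, that of short sums was 0.719 to 1.06, which crosses 1, the highest without D-gal replicate 1. The ratio of all clustered sums was 1.13 without Hist1h1c and 1.08 without Hist2h2aa1 and Hist2h3c1 as well. The replicate numbers did not pair the libraries (correlations of deviations under equal numbers 0.0277 at most). The replicate block called 3 clustered genes higher, 8 others lower and 530 genes in all. Low counts limit the 62 clustered genes not tested, most with under 10 counts in every library. Whether depth or the type of library set these counts was not tested.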

Other observations

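The duplicated stretch of chromosome 3 that holds Hist2h2aa1, Hist2h2aa2, Hist2h3c1 and Hist2h3c2 had an uneven division of counts, noticed after the values were seen. Hist2h2aa1 had 60 counts in D-gal replicate 3 and 0 in the other 5 libraries, and Hist2h3c1 had 13 counts there and 0 elsewhere. All sequence words of both genes occur in other genes, overlapping ones included. Hist2h2aa2 had 20, 29 and 16 counts in controls and 19, 35 and 22 with D-gal, so that D-gal replicate 3 was not low in it. Summed over Hist2h2aa1 and Hist2h2aa2, counts were 20, 29 and 16 in controls and 19, 35 and 82 with D-gal. Summed over Hist2h3c1 and Hist2h3c2 they were 21, 22 and 12 and 28, 28 and 47. Gm20632, which overlaps Hist2h2aa2 on the other strand, had 51, 49 and 67 and 39, 51 and 29.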
